A study of Mus musculus with 4 samples.

Results

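Transcripts of 9 chemokine receptor genes, Ccr1, Ccr2, Ccr7, Cxcr3, Cxcr4, Cxcr5, Cxcr6, Cx3cr1 and Xcr1, were described in immune cells of tumour-bearing mice, out of 32285 genes in the files. The genes were chosen by name, as receptors that mark or guide leukocyte classes, and not by a measured threshold. All mice were B6 and carried the BeCon tumour, an ovarian cancer model by the series title, so that the controls were tumour-bearing as well. They received either YKL-05-099, a compound that blocks the salt-inducible kinases, or its vehicle (dose, duration and age are not given in the sources used here). Viable CD45+ MHCI+ cells of ascites were pooled from 4 vehicle and 4 treated mice, and those of spleen and blood from 3 vehicle mice (numbers 1 to 3) and 3 treated mice (numbers 2 to 4), with a hashtag antibody for each mouse and tissue. Blood and spleen shared a single droplet library, and ascites formed another.

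Chemokine receptors are G protein-coupled receptors that turn a gradient of secreted chemokine into directed migration. Inflammatory receptors such as Ccr1 and Ccr2 bring myeloid cells from blood into tissue, and Ccr2 with its ligand Ccl2 releases monocytes from bone marrow. Ccr7 draws lymphocytes and activated dendritic cells to the lymph node, Cxcr5 guides B cells to the follicle, and Cxcr4 holds cells at sources of Cxcl12. Among the others, Cxcr3 and Cxcr6 are carried by effector T cells, Cx3cr1 by patrolling monocytes and Xcr1 by cross-presenting conventional dendritic cells (cDC1).

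The ascites library held 134034611 UMIs over 13688 barcodes (a UMI, or unique molecular identifier, stands for 1 captured transcript) and the spleen and blood library 92064806 over 14792, and 52 barcode sequences occurred in both. After filters and hashtag assignment, 4368 and 5514 cells remained, of which 3811 and 4733 fell in a cluster that could be named or numbered by lineage from marker genes. Class names below stand for clusters that resemble the named type ("cDC1" for cDC1-like), and no chemokine receptor was used to build or name them. The ascites cDC1 cluster had all 7 of its markers (such as Clec9a, Itgae and Naaa), and Vcan, Chil3 and Ly6c2 led 1 of the sub-clusters called monocytes, while Ace and Adgre4, markers of non-classical monocytes, led another. Clusters were assigned to classes after these markers had been seen. UMIs of each class were summed per mouse and are given as CPM, counts scaled by the UMI total of the class. Depth therefore ranged with the number of cells: the cDC1 sums of ascites came from 29 to 65 cells of a vehicle mouse and 34 to 44 cells of a treated mouse. A mouse entered a test with at least 20 cells of the class and a class profile with at least 10. Of 135 possible combinations of a receptor with 1 of 15 tested class and tissue groups, 49 passed the filter on low counts.

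On chromosome 9 of the mouse genome (mm10), Cxcr6, Xcr1, Ccr1 and Ccr2 lie in 1 cluster of receptor genes, with Cxcr6 at chr9:123806475-123811760, Xcr1 at chr9:123852315-123862029, Ccr1 at chr9:123962124-123968692 and Ccr2 at chr9:124101950-124113557. Cx3cr1 lies on the same chromosome at chr9:119901616-120069879 and Cxcr5 at chr9:44511787-44561877. Ccr7 is at chr11:99144196-99155077, Cxcr3 at chrX:101731535-101734269 and Cxcr4 at chr1:128588199-128592293. The RefSeq promoter table (GRCm38.p6) held 7 of the 9 genes, all but Ccr7 and Cxcr5. For 3 of the 7, the 250 bases before the annotated start held no annotated exon, and they are shown because each of these receptors changed in at least 1 ascites class below, with Xcr1 and Ccr1 lower and Cxcr4 in both directions. Each is written 5′ to 3′ on the gene's own strand, which is the minus strand for all 3, and capitals mark a motif match.
Xcr1, chr9:123862030-123862279: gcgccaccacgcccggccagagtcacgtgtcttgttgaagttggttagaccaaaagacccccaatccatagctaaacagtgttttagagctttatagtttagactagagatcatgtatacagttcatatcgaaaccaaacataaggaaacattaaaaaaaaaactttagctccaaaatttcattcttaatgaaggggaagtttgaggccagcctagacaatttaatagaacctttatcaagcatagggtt
Ccr1, chr9:123968693-123968942: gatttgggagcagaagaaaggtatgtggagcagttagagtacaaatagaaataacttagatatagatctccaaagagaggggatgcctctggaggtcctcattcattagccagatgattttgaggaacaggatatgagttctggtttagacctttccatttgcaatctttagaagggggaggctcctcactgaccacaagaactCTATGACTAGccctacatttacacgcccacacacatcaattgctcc
Cxcr4, chr1:128592300-128592549: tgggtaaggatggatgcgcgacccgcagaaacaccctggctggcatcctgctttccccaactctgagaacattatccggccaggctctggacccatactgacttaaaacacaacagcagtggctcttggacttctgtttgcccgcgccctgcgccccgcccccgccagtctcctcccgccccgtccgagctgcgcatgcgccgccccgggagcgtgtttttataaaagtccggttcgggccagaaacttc
The motifs searched on both strands were the full cAMP response element TGACGTCA, its shorter form TGACG (which the full form also contains), the AP-1 site TGANTCA, an interferon response element (GAAA, any 2 bases, GAAA) and an MEF2 site (CTA, any 4 bases, TAG). CREB and MEF2 are transcription factors whose coactivators or repressors are targets of the salt-inducible kinases. Only Ccr1 of these 3 held a match, an MEF2 motif whose first base lies 46 bases before the start. Among the other 4 promoters in the table, Cx3cr1 held an MEF2 match 67 bases before the start and Cxcr6 held TGACG 24 bases before it, while the windows of Ccr2 and Cxcr3 held none of the 5 motifs. Of 32536 mouse promoter windows of this length, 1.56% held TGACGTCA, 17.9% TGACG, 6.73% the AP-1 motif, 2.98% the interferon motif and 3.22% the MEF2 motif. These matches describe the letters of the windows and not binding.

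In vehicle mice each receptor had its own class profile. Ccr2 was highest in ascites monocytes, at 1390 ± 184 CPM (SD, n = 4 mice), followed by a C1q-positive myeloid cluster (number 1) at 864 ± 55.5 (n = 4), and the ranges of these classes did not overlap. Classical monocytes of blood, pooled over the vehicle mice because only 1 of them had enough cells, had 1216 CPM. Ccr2 stood at 315 ± 108 in cDC2, the conventional dendritic cells that present mainly to CD4 T cells, at 211 ± 26.8 in cDC1 (n = 4 each) and at 206 ± 98.6 in NK cells of ascites (n = 3). These last 3 classes overlapped in range and were not ordered beyond their spread. In spleen, classical monocytes had 600 ± 56.4 CPM (n = 2), and in blood NK cells had 211 ± 46.6 (n = 3). Ascites B cells, which should lack Ccr2, gave 14.3, 18.8, 18.9 and 11.7 CPM in vehicle mice 1 to 4, a level that free RNA in droplets can give.

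Ccr1, a receptor of inflammatory chemokines such as Ccl3 and Ccl5, was at its highest in ascites neutrophils with 1481 ± 316 CPM (n = 4), and next in macrophages with 246 ± 38.6 (n = 4). Neutrophils of the spleen had 182 ± 94.1 (n = 3). The neutrophil class of spleen and blood joins clusters 15 and 17. Cluster 17, with Camp, Ngp and Ltf among its top genes, held 73.8% of the vehicle cells of that class. Ccr7 peaked in migratory dendritic cells of ascites at 1537 ± 225 (n = 4), above ascites B cells at 368, ascites CD8 T cells at 322 and ascites CD4 T cells at 282 CPM, whose order was within their spread. Cxcr4 was spread over many classes, from 372 ± 74.4 in ascites neutrophils to 296 ± 40.4 in ascites B cells and 208 in non-classical monocytes of blood.

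The other receptors were narrower, apart from Cxcr3 and Cxcr6. Xcr1 stood at 253 ± 35.4 CPM in cDC1 of ascites (n = 4), and the few spleen cDC1 cells had 275 CPM when the vehicle mice were pooled. Cx3cr1 was highest in non-classical monocytes of blood at 564 ± 225 (n = 3), against 259 in the pooled classical monocytes of blood, 145 in myeloid cluster 1 and 124 in monocytes of ascites. Cxcr5 was mainly a B cell transcript in all 3 tissues, at 42.2 CPM in ascites, 69.8 in spleen and 73.5 in blood. Spleen regulatory T cells held 27.1 CPM of Cxcr5 when vehicle mice were pooled. Cxcr3 and Cxcr6 were highest in a spleen T cell cluster (number 10), at 160 ± 51.8 and 250.1 ± 75.7 CPM (n = 3). Several other spleen T cell classes also held Cxcr3 when vehicle mice were pooled. It was 132 CPM in a CD4 T cell cluster (7b), 108 in regulatory T cells and 101 in a CD8 T cell cluster (6a). In ascites cDC1, Cxcr3 was lower than in these, at 66.8 ± 8.91 (n = 4). Cxcr6 was also held by other T cell classes when vehicle mice were pooled. It was 90.0 CPM in a T cell cluster of ascites (number 9), 86.7 in spleen cluster 6a and 62.1 in spleen cluster 7b.

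**Figure D1:**
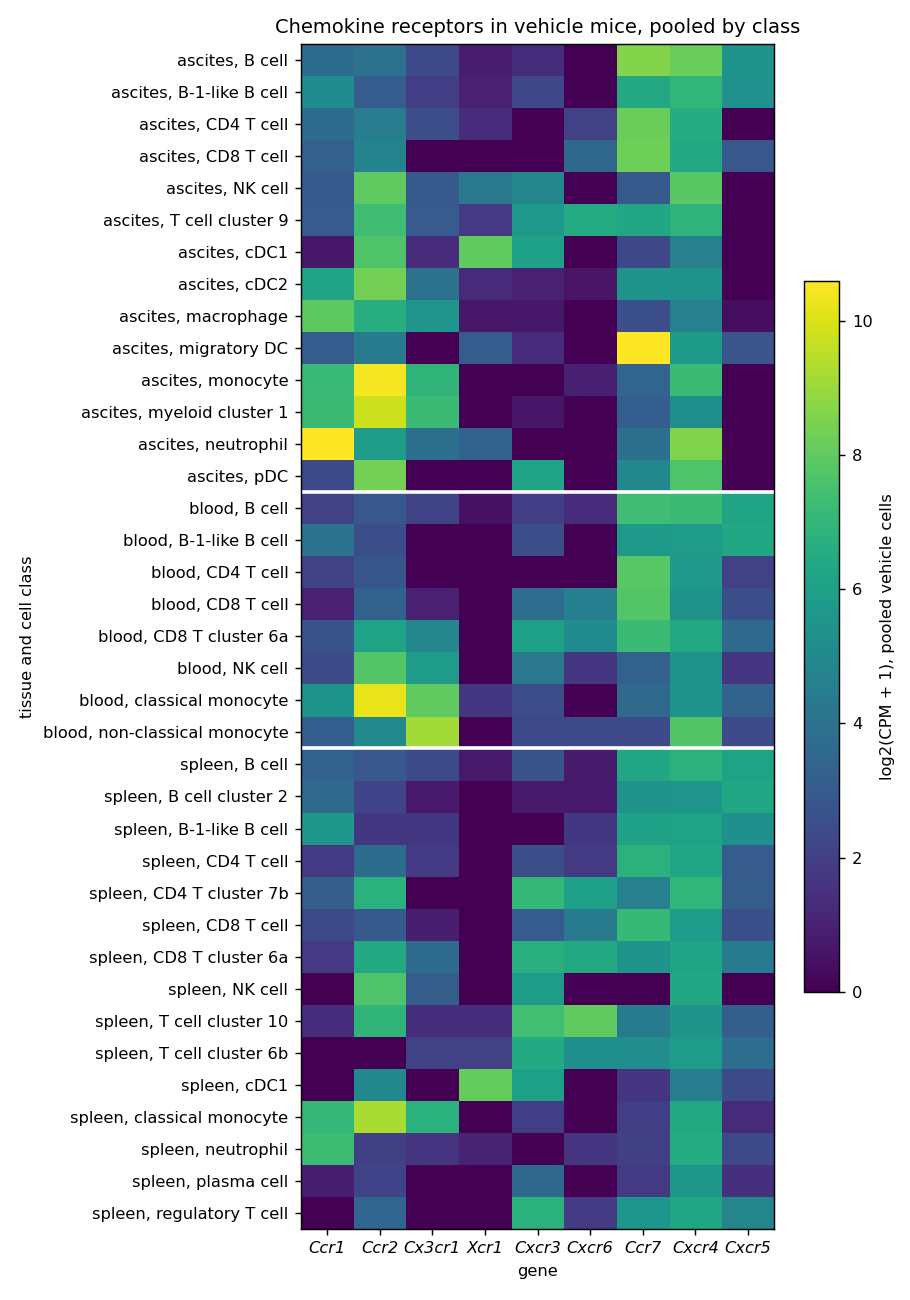
Class profile of the 9 receptors, with rows for class and tissue groups and columns for genes; the colour gives log2(CPM + 1) of the pooled vehicle cells. Ccr2 is highest in ascites monocytes (1387 CPM pooled), Ccr1 in ascites neutrophils (1526 CPM) and Ccr7 in migratory dendritic cells (1544 CPM).

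The genes whose vehicle profile was most like each receptor were taken over 37 class and tissue groups, as the 3 highest Pearson correlations of log2(CPM + 10) among genes reaching 50 CPM in 1 group. Groups share libraries and depth, so these values are descriptions. Xcr1 was followed by Gcsam (r = 0.991), Fam149a (0.958) and Snx22 (0.957). Cxcr5 was followed by Ms4a1 (0.921), Pax5 (0.916) and Ebf1 (0.911), B cell genes of which Ms4a1 and Pax5 were among the class markers. Cx3cr1 went with Clec4a3 (0.922), Ccr1 with Dmxl2 (0.921), Osm (0.891) and Clec5a (0.884), and Ccr2 with Chmp4b (0.815). Weaker likeness was found for Cxcr4 with Kmt2e (0.769), Cxcr3 with Ikzf2 (0.763), Cxcr6 with Trgv2 (0.756) and Ccr7 with Birc2 (0.714).

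YKL-05-099 was then compared with vehicle in each class, with the mouse as the replicate and adjusted p-values from edgeR's quasi-likelihood test over all genes of the class. In ascites, 13 of 27 tested pairs of a receptor and a class passed the threshold of 0.05, 10 of them lower and 3 higher with YKL-05-099. Over all genes of the same 7 ascites classes, 8.12% of gene and class pairs passed, 4.22% lower and 3.9% higher. In spleen 1 of 14 pairs passed, higher, against 2.67% of all pairs (1.33% higher and 1.34% lower). In blood 2 of 8 passed, both higher, against 0.641% of all pairs (0.391% higher and 0.25% lower). All 10 lower calls were in ascites, 9 of them in myeloid and dendritic classes. Most of the 27 tested pairs of ascites were in those classes. They numbered 5 each in cDC1 and cDC2, and 4 each in macrophages, monocytes and myeloid cluster 1. The main tests of spleen and blood covered only B, T and NK cell classes, so no myeloid call could arise there. The receptors were chosen with earlier results of these mice known, so these counts are no independent evidence of direction.

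**Figure D2:**
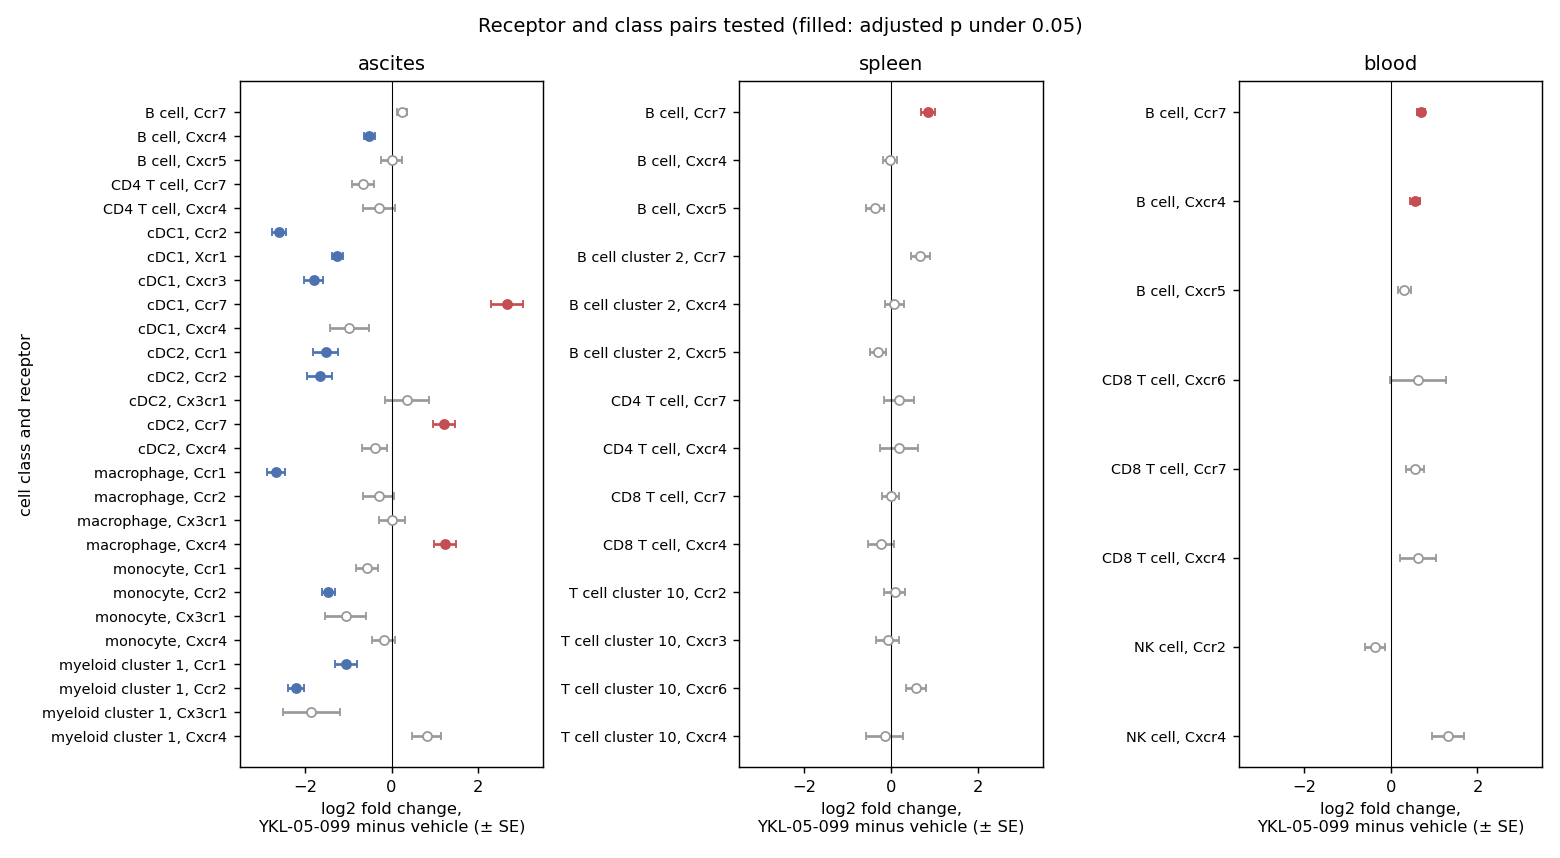
Difference of YKL-05-099 minus vehicle on the log2 scale, with bars for the standard error, for the tested receptor and class pairs (filled points are called). In ascites 10 pairs are called lower and 3 higher, and all called pairs of spleen and blood are higher.

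Ccr2 was lower in 4 ascites classes, and cDC1 changed most. In cDC1 the vehicle mice 1 to 4 had 171, 219, 227 and 226 CPM of Ccr2, and treated mice 1 to 4 had 32.6, 32.1, 35.5 and 39.0. Every treated mouse was far below every vehicle mouse, and the treated values were 1 narrow group. Ccr2 fell by 2.60 ± 0.16 on the log2 scale (SE, adjusted p = 4.56e-16), from 211 ± 26.8 to 34.8 ± 3.19 CPM (SD, n = 4 each). Permuting the CPM values exactly (two-sided) gave an exact permutation p = 0.02857, which is the smallest value that 4 against 4 mice allow. In cDC1, 15.1% of the 5803 tested genes passed the threshold and 7.93% were lower.

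The treated cDC1 values remained above the level in treated ascites B cells, which had 12.4, 20.8, 10.7 and 25.2 CPM of Ccr2. Those B cells had a median depth of only 3657 to 3880 UMIs, so the CPM levels are not a like background. Median depth of cDC1 cells was 18372.5 to 20288 UMIs in vehicle mice and 17668 to 18693.5 in treated mice. Classical monocyte markers, which could bring Ccr2 RNA into the cDC1 sums, amounted to 434 to 1373 CPM in vehicle and 336 to 729 CPM in treated mice; their part in the result was not tested. Among cDC1 cells with no UMI of the migratory dendritic cell genes Fscn1, Ccl22, Cacnb3 and Il12b, a subset added after seeing the data, Ccr2 was lower by a log2 difference of -2.45 ± 0.18. The few spleen cDC1 cells (6 to 9 per vehicle mouse) had 0, 31.1 and 66.2 CPM of Ccr2 and were not tested.

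Monocytes of ascites carried the most Ccr2 and had less of it with YKL-05-099. Vehicle mice had 1294, 1445, 1621 and 1201 CPM, and treated mice 1, 3 and 4 had 597, 519 and 348. Treated mouse 2, with 15 monocytes, did not enter the test and had 470.3 CPM. All treated mice were below all vehicle mice. The fall was 1.46 ± 0.15 on the log2 scale (SE, adjusted p = 2.2e-06), from 1390 ± 184 to 488 ± 127 CPM (SD, n = 4 and 3). The exact two-sided permutation test gave p = 0.05714. That test doubles the smaller tail, so it can give no lower p with 4 against 3 mice. In this class 4.38% of tested genes passed.

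Sub-clusters of the monocyte cluster differed in their makeup between the arms. The sub-cluster with non-classical markers held 69 vehicle and 48 treated cells, the first of the classical sub-clusters 10 and 60, and the other 48 and 2. Pooled over mice, Ccr2 went from 911 to 302 CPM in the non-classical sub-cluster and from 1209 to 573 in the first classical one, and it was 1757 in vehicle cells of the other. Fitted alone, with at least 10 cells per mouse, the classical sub-clusters gave -1.42 ± 0.17 (adjusted p = 6.03e-05, 4 against 3 mice) and the non-classical one -1.48 ± 0.27 (adjusted p = 0.00182, 3 against 2). Ccr2 was lower in both parts. Classical monocyte markers summed to 4506 to 6212 CPM in vehicle and 5067 to 5634 in treated mice, and non-classical markers to 222 to 307 and 130 to 256.

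The monocytes of other tissues were few. Classical monocytes of blood had 927, 1088 and 1286 CPM of Ccr2 in vehicle mice 1 to 3 (6, 4 and 34 cells). Treated mice 2 to 4 had 774, 51.6 and 1008 CPM there (11, 2 and 3 cells). These blood values overlapped between the arms and were not tested. Under the planned limit of 10 cells per mouse, spleen classical monocytes of vehicle mice 2 and 3 had 560.3 and 640.1 CPM of Ccr2, and those of the 3 treated mice 152, 192 and 202. The treated mice were again below both vehicle mice (and below the 7 cells of vehicle mouse 1, with 536 CPM), with a log2 difference of -1.61 ± 0.21 (adjusted p = 0.000249). Ccr1 in the same cells was 155 and 142 CPM in vehicle and 17.9, 15.6 and 22.4 in treated mice, a difference of -2.81 ± 0.37 (adjusted p = 0.000255). These spleen values come from fewer cells than the other tests and do not enter the counts above.

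Myeloid cluster 1 is C1q-positive and was left unnamed. Its Ccr2 level was 801, 935 and 849 CPM in vehicle mice 1, 3 and 4 and 227, 139 and 181 in treated mice 1, 3 and 4, again without overlap. The mice left out for having 18 or 19 cells, both numbered 2, had 870.5 CPM in the vehicle and 150.0 in the treated arm. The log2 difference was -2.21 ± 0.18 (adjusted p = 1.82e-07). Median depth per cell of this cluster was 12110 to 14000 UMIs in vehicle and 7418 to 11270 in treated mice. The part of depth was not tested. In cDC2, vehicle mice had 367, 154, 351 and 385 CPM and treated mice 1, 3 and 4 had 95.3, 82.8 and 135. These values did not overlap, but treated mouse 2, left out with 15 cells, had 177 CPM and was above vehicle mouse 2. The difference over the mice tested was -1.66 ± 0.28 (adjusted p = 0.00258). The share of all tested genes that passed was 4.17% in myeloid cluster 1 and 6.31% in cDC2.

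Ccr2 did not pass the test in ascites macrophages, where vehicle mice had 68.4, 138, 142 and 59.7 CPM and treated mice 64.8, 109, 91.8 and 67.0. The arms overlapped throughout, and the log2 difference was -0.30 ± 0.36 (adjusted p = 0.657). The macrophage class joins 4 clusters that the arms filled differently: vehicle cells were in clusters 8, 11 and 16 (130, 126 and 80 cells, with 10 in cluster 7) and treated cells almost all in cluster 7 (115 of 120). Pooled Ccr2 of vehicle cells ranged from 5.3 CPM in cluster 16 and 30.9 in cluster 11 to 215 in cluster 8 and 257 in cluster 7, against 84.0 in treated cells of cluster 7.

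**Figure D3:**
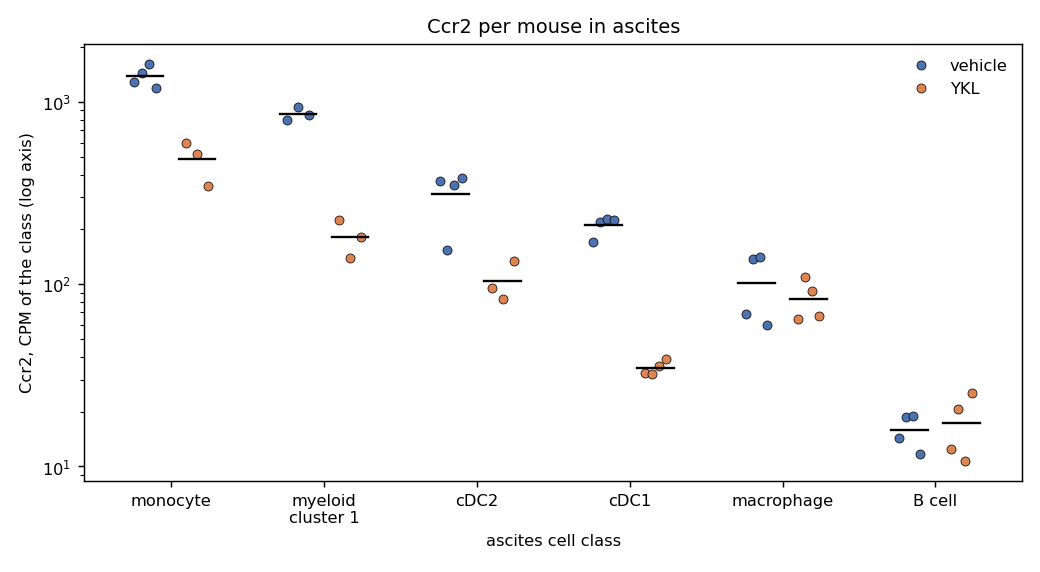
Ccr2 (CPM, log axis) in ascites classes, with 1 point per mouse tested and bars for the mean. The treated cDC1 points lie between 32.1 and 39.0 CPM, all below the vehicle points at 171 to 227, while the arms of macrophages overlap.

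Of the other receptors of cDC1, Xcr1 and Cxcr3 fell and Ccr7 rose. Xcr1, the receptor for Xcl1 that marks cross-presenting dendritic cells, was 260.3, 235, 218 and 299.7 CPM in vehicle mice and 93.3, 111, 124 and 109 in treated mice. The arms did not overlap, and the change was -1.25 ± 0.12 on the log2 scale (adjusted p = 2.76e-10). Cxcr3, the receptor for the interferon-induced chemokines Cxcl9 and Cxcl10, had 57.8, 61.1, 76.8 and 71.7 CPM in vehicle and 22.2, 16.9, 17.8 and 20.1 in treated mice. It fell by 1.80 ± 0.21 (adjusted p = 3.18e-08), and no treated mouse reached a vehicle mouse. In cells without UMIs of the 4 migratory genes above, the values were -1.25 for Xcr1 and -1.79 for Cxcr3.

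Ccr7 in cDC1 was at 3.25, 5.56, 1.75 and 5.43 CPM in vehicle mice, from 13 UMIs in all, and at 22.2, 27.0, 25.4 and 31.4 in treated mice, from 76 UMIs. All treated mice were above all vehicle mice, and the difference was 2.66 ± 0.37 (adjusted p = 7.99e-07). An alternative hashtag rule, which assigns a cell to its top hashtag if that holds at least 80% of its hashtag UMIs, gave 2.14 ± 0.65 (adjusted p = 0.0746), which did not pass. Ascites macrophages, which should hold little Ccr7, had 2.44 to 6.13 CPM in vehicle and 3.64 to 8.16 in treated mice, so the vehicle cDC1 level was no higher than theirs. Of 7 migratory dendritic cell markers, 5 had a higher mean in treated cDC1. The sum of the 7 was 53.7 to 95.2 CPM in vehicle and 54.1 to 117 in treated mice, and their part in the result was not tested. Among cDC1 cells with no UMI of Fscn1, Ccl22, Cacnb3 or Il12b, Ccr7 did not pass the filter on low counts. Its rise could therefore not be tested in that subset. Cxcr4 in cDC1 was 8.69 to 33.35 CPM in vehicle and 5.92 to 25.3 in treated mice, overlapping. It did not pass (-0.98 ± 0.45, adjusted p = 0.17), nor under the top hashtag rule (-0.75 ± 0.40, adjusted p = 0.258). It did pass with no filter on low counts (-1.0, adjusted p = 0.0309), without vehicle mouse 4 (-1.31, adjusted p = 0.00391) and without treated mouse 2 (-1.48, adjusted p = 0.019).

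**Figure D4:**
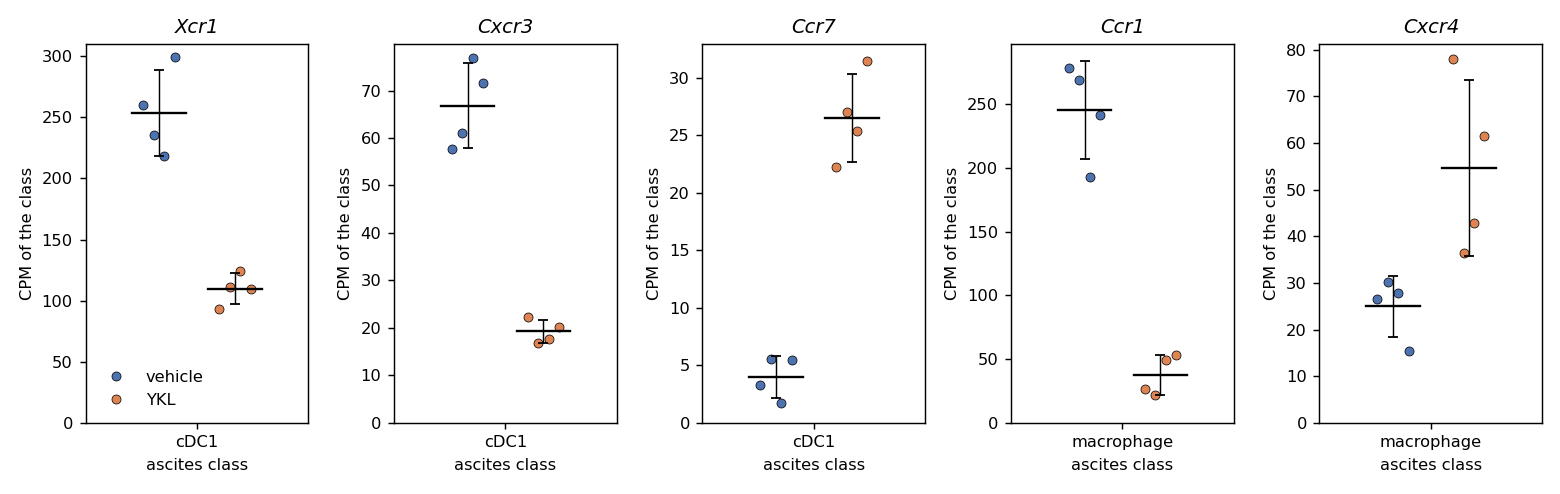
CPM per mouse of Xcr1, Cxcr3 and Ccr7 in ascites cDC1 and of Ccr1 and Cxcr4 in ascites macrophages, vehicle beside YKL-05-099, with mean and SD. Xcr1, Cxcr3 and Ccr1 are lower, and Ccr7 and Cxcr4 higher, in all 4 treated mice than in any vehicle mouse.

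Ccr7 also rose in cDC2. Vehicle mice had 65.1, 25.7, 30.6 and 46.3 CPM and treated mice 1, 3 and 4 had 84.1, 125 and 100.3, without overlap, and treated mouse 2 with its 15 cells had 86.0. The difference was 1.21 ± 0.26 (adjusted p = 0.00336). Migratory markers moved with it in part, at 133 to 169 CPM in vehicle and 186 to 218 in treated mice, with 3 of 7 higher in mean. In cDC2 cells with no UMI of Fscn1, Ccl22, Cacnb3 or Il12b, Ccr7 differed by 0.24 ± 0.31 (adjusted p = 0.734) and the call was lost, while Ccr2 and Ccr1 kept values of -1.52 and -1.43. Migratory dendritic cells themselves, tested with at least 10 cells per mouse, had 1294, 1788, 1656 and 1412 CPM in vehicle and 1823, 2110, 2168 and 1866 in treated mice. Their treated values were all above the vehicle values, but the log2 difference of 0.35 ± 0.13 did not pass (adjusted p = 0.123).

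Ccr1 fell in macrophages, cDC2 and myeloid cluster 1. Macrophages of vehicle mice had 279, 269, 193 and 242 CPM and those of treated mice 26.7, 21.8, 49.0 and 53.1, far apart. The fall was 2.67 ± 0.21 (adjusted p = 1.34e-07), from 246 ± 38.6 to 37.6 ± 15.7 CPM (SD, n = 4 each), in a class where 13.5% of tested genes passed. Since the arms filled different macrophage clusters, the pooled values by cluster bear on it. Vehicle cells had 294, 224 and 205 CPM in clusters 11, 16 and 8 and 169 in the 10 cells of cluster 7. Treated cells of cluster 7 had 38.5. Median depth of macrophages was 15850 to 18692 UMIs per cell in vehicle and 10845.5 to 13947.5 in treated mice, and its part was not tested. Resident macrophage markers were 899 to 3843 CPM in vehicle and 7.27 to 51.0 in treated mice, and their part in the result was not tested. Neutrophils have the most Ccr1, and neutrophil markers in the macrophage sums were 102 to 343 CPM in vehicle and 41.9 to 78.1 in treated mice; their part was not tested either.

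In cDC2, Ccr1 was 60.7, 74.0, 85.6 and 57.9 CPM in vehicle and 20.6, 35.8 and 17.2 in treated mice 1, 3 and 4. These values did not overlap, with a difference of -1.52 ± 0.29 (adjusted p = 0.00105). Ccr1 of myeloid cluster 1 was 143, 140 and 168 CPM in vehicle and 56.6, 56.8 and 103 in treated mice, a difference of -1.05 ± 0.25 (adjusted p = 0.018). This last call was lost without treated mouse 1 (adjusted p = 0.0826) or treated mouse 3 (adjusted p = 0.102), and with DESeq2 (adjusted p = 0.0586). Monocytes had 107, 159, 137 and 164 CPM of Ccr1 in vehicle and 69.2, 141 and 72.5 in treated mice, overlapping, with -0.56 ± 0.25 (adjusted p = 0.252), which passed without treated mouse 3 (-0.97, adjusted p = 0.0474). As background, ascites B cells, which had fewer UMIs per cell than these classes, had at most 15.3 CPM of Ccr1. Neutrophils, the class with the most Ccr1, gave -0.11 with at least 10 cells per mouse (adjusted p = 0.925).

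Cx3cr1 passed the main test in no class. In monocytes it was 79.4, 222, 51.3 and 142 CPM in vehicle and 54.8, 49.6 and 67.7 in treated mice, overlapping, with -1.06 ± 0.47 (adjusted p = 0.287). It passed there under the top hashtag rule (-1.01 ± 0.24, adjusted p = 0.00817), with no filter on low counts (-1.11, adjusted p = 0.00694) and without vehicle mouse 3 (-1.32, adjusted p = 0.0202). With at least 10 cells per mouse it did not pass (-0.96 ± 0.41, adjusted p = 0.241), nor in the non-classical sub-cluster (-1.77 ± 0.50, adjusted p = 0.0952). The classical sub-clusters under the top hashtag rule did not pass either (-0.63 ± 0.38, adjusted p = 0.37). Pooled vehicle Cx3cr1 was 253 CPM in the non-classical sub-cluster and 53.3 and 53.7 in the classical ones. The part of sub-cluster makeup was not tested. In myeloid cluster 1, Cx3cr1 was 194, 159 and 54.4 against 53.3, 11.4 and 53.6 CPM. This set all treated mice below all vehicle mice by a small margin. The log2 difference there was -1.85 ± 0.65 (adjusted p = 0.234), and with at least 10 cells per mouse, which admits all 4 mice of each arm, it was -1.90 and passed (adjusted p = 0.0389). It also passed under the top hashtag rule (-2.06, adjusted p = 0.046), with no filter on low counts (-1.92, adjusted p = 9.6e-07) and without vehicle mouse 4 (-2.19, adjusted p = 0.000809). Macrophage values of 29.4, 55.3, 47.0 and 46.8 CPM in vehicle and 51.4, 65.5, 18.4 and 53.1 in treated mice gave a difference of 0.01 ± 0.29 (adjusted p = 0.99). That value turned to -1.15 ± 0.32 (adjusted p = 0.0349) under the top hashtag rule, which keeps cells that the main rule calls doublets.

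Cxcr4 moved in different directions in different classes. In macrophages it was 26.5, 30.1, 27.9 and 15.3 CPM in vehicle and 78.1, 36.4, 42.9 and 61.4 in treated mice, all higher than vehicle, a rise of 1.23 ± 0.26 (adjusted p = 0.00373). Pooled vehicle values were 23.7, 40.2 and 12.3 CPM in clusters 11, 16 and 8, against 57.7 in treated cells of cluster 7. In myeloid cluster 1 the difference was 0.81 ± 0.34 and did not pass (adjusted p = 0.211), while under the top hashtag rule, with all 4 mice of each arm, it was 0.65 ± 0.20 and passed (adjusted p = 0.0259).

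In ascites B cells Cxcr4 was 340.2, 319, 264 and 259 CPM in vehicle and 223, 249, 203 and 188 in treated mice 1 to 4. All treated mice were lower, by a narrow gap, and the fall was 0.51 ± 0.13 (adjusted p = 0.00797) in a class where 6.22% of tested genes passed. The call was lost with at most 5% mitochondrial UMIs (-0.30, adjusted p = 0.7), without vehicle mouse 1 (adjusted p = 0.0647) and without treated mouse 4 (adjusted p = 0.0748). Macrophage markers in the ascites B cell sums, which measure free RNA or doublets, were 2728 to 3542 CPM in vehicle and 2473 to 2735 in treated mice.

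The B cell class of spleen and blood joins clusters 0 and 3, which tissue and arm filled differently. Cluster 0 held 57.3% of vehicle and 43.5% of treated B cells in spleen, and 84.0% and 79.4% in blood. Each cluster was therefore also fitted alone, a choice made after seeing the data.

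Cxcr4 in B cells of blood was higher with YKL-05-099. Cxcr4 there was 123, 183 and 144 CPM in vehicle mice 1 to 3 and 188, 258 and 194 in treated mice 2 to 4, where the lowest treated mouse was just above the highest vehicle mouse. The rise was 0.56 ± 0.11 (adjusted p = 0.000221), in a class with 1.02% of genes called. Alone, cluster 0 gave 0.57 ± 0.13 (adjusted p = 0.00258) and cluster 3 gave 0.48 ± 0.24 (adjusted p = 0.554). The class as a whole did not pass with DESeq2 (adjusted p = 0.122), with at most 5% mitochondrial UMIs (0.37, adjusted p = 0.794), without vehicle mouse 1 (adjusted p = 0.0578) or without treated mouse 3 (adjusted p = 0.0983). Spleen B cells had 110, 126 and 100.1 CPM in vehicle and 80.9, 117 and 116 in treated mice, overlapping, with -0.03 ± 0.17 (adjusted p = 0.957), and neither cluster passed alone. Blood NK cells had 49.2, 22.9 and 48.1 CPM in vehicle and 89.6, 92.2 and 120 in treated mice; all treated mice were higher, with 1.32 ± 0.38, but the test did not pass (adjusted p = 0.0919).

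Ccr7 rose in B cells of spleen and blood. Spleen vehicle mice had 83.8, 67.5 and 87.0 CPM and treated mice 2 to 4 had 114, 149 and 145, without overlap, a rise of 0.85 ± 0.17 (adjusted p = 0.000524) where 3.58% of genes passed. Cluster 3 alone gave 1.28 ± 0.27 (adjusted p = 0.00307), while cluster 0 alone gave 0.56 ± 0.23 and did not pass (adjusted p = 0.283). Blood vehicle mice had 157, 150.1 and 174 CPM and treated mice 264, 270.2 and 238, also without overlap, a rise of 0.70 ± 0.10 (adjusted p = 5.14e-08). In blood both clusters passed alone, with 0.63 ± 0.12 (adjusted p = 4.98e-05) for cluster 0 and 0.94 ± 0.23 (adjusted p = 0.0347) for cluster 3. The blood call was lost with at most 5% mitochondrial UMIs (0.77, adjusted p = 0.136). A separate spleen B cell cluster (number 2) gave 0.67 ± 0.22, which did not pass (adjusted p = 0.0668) but did without vehicle mouse 3 (0.87, adjusted p = 0.0359) or treated mouse 4 (0.76, adjusted p = 0.0316).

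Ascites B cells had 332, 307, 365 and 469 CPM of Ccr7 in vehicle and 416, 416, 412 and 534 in treated mice, overlapping through vehicle mouse 4, with 0.24 ± 0.12 (adjusted p = 0.308). Without vehicle mouse 4 the difference was 0.41 and passed (adjusted p = 0.0176). Cxcr5, the follicle receptor, did not pass in ascites B cells, with a difference of 0.00 ± 0.25 (adjusted p = 0.999). It was 36.7, 37.5, 47.1 and 47.6 CPM there in vehicle and 55.9, 41.6, 32.0 and 44.5 in treated mice. Nor did it pass in B cells of spleen (-0.38 ± 0.21, adjusted p = 0.421) or blood (0.31 ± 0.15, adjusted p = 0.528). Treated mice were all lower in spleen, by a narrow gap (46.7 to 52.1 against 52.3 to 91.4 CPM). In blood they were all higher (85.0 to 93.5 against 69.5 to 78.8 CPM).

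**Figure D5:**
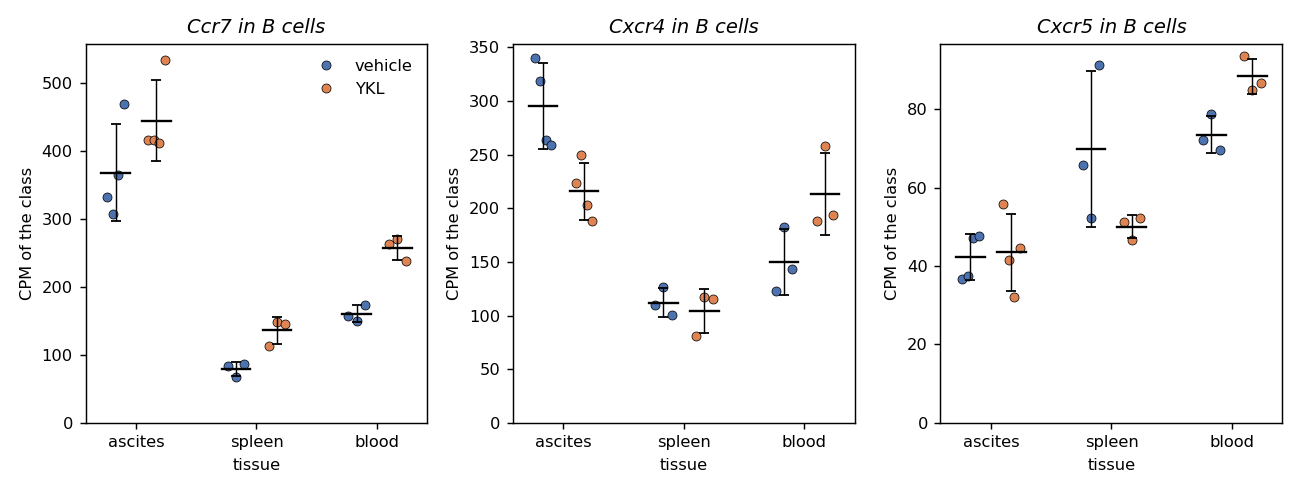
Ccr7, Cxcr4 and Cxcr5 (CPM) in B cells of ascites, spleen and blood, with 1 point per mouse and the mean and SD. Ccr7 is higher in all treated mice of spleen (114 to 149 CPM against 67.5 to 87.0) and blood (238 to 270.2 against 150.1 to 174).

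Whether the effect of YKL-05-099 differed between tissues was tested with edgeR as an interaction of tissue and treatment, blocked by mouse, over 9 combinations of receptor, class and tissue pair. None passed after adjustment, against 0.473% of all genes in these fits, and 5 had an unadjusted p under 0.05. Cxcr4 in B cells had a log2 effect in spleen minus that in blood of -0.56 ± 0.20 (adjusted p = 0.263) and in ascites minus spleen of -0.62 ± 0.23 (adjusted p = 0.288). The opposite signs of Cxcr4 in ascites and blood B cells are therefore not shown to be a difference by these tests, which did not compare ascites with blood directly. Ccr7 in B cells gave -0.45 for ascites minus spleen (adjusted p = 0.488) and in CD8 T cells -0.59 for spleen minus blood (adjusted p = 0.614). Cxcr5 in B cells gave -0.72 ± 0.27 for spleen minus blood (adjusted p = 0.285). Under the top hashtag rule 1 of 14 combinations passed, Cxcr4 in B cells for ascites minus spleen (-0.75 ± 0.21, adjusted p = 0.0449).

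In T cells no receptor passed the main test. Ccr7 of CD4 T cells of ascites was 199.8 and 314 CPM in vehicle mice 1 and 4 and 143 and 187 in treated mice 1 and 4, with -0.66 ± 0.25 (adjusted p = 0.561). With at least 10 cells per mouse, vehicle mice had 199.8, 311, 302 and 314 CPM and treated mice 143, 155, 190.5 and 187, all lower than vehicle. That test gave -0.69 ± 0.22 and passed (adjusted p = 0.0456), and the top hashtag rule gave -0.66 (adjusted p = 0.0509). Blood CD8 T cells had 183, 238 and 224 CPM in vehicle and 317 and 333 in treated mice 3 and 4, higher in both, without passing (0.56 ± 0.20, adjusted p = 0.556).

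Cxcr6 in spleen T cell cluster 10 was 332, 235 and 183 CPM in vehicle and 321, 541 and 324 in treated mice, overlapping through vehicle mouse 1, with 0.57 ± 0.23 (adjusted p = 0.27). It passed under the top hashtag rule (0.62, adjusted p = 0.0377) and without treated mouse 4 (0.70). Cxcr3 in the same cluster was 220.2, 134 and 127 CPM in vehicle and 219, 105 and 178 in treated mice, overlapping.

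Spleen and blood of the same mouse were then compared, with the mouse as a block and both arms included. Of 7 pairs of receptor and class 3 passed, all lower in spleen, against 10.7% of all gene and class pairs (4.61% lower and 6.13% higher). By class, 14.1% of genes passed in B cells and 4.79% in CD8 T cells. Ccr7 in B cells was 108 ± 33.9 CPM in spleen and 209 ± 54.6 in blood, lower in spleen in 6 of 6 mice (-0.81 ± 0.10, adjusted p = 5.67e-10). Cxcr4 in B cells was 108 ± 15.97 in spleen and 182 ± 46.5 in blood, lower in 6 of 6 mice (-0.62 ± 0.11, adjusted p = 4.71e-06). Within B cell cluster 3 the differences were -1.13 for Ccr7 and -0.96 for Cxcr4, and within cluster 0 they were -0.63 for Ccr7 and -0.37 for Cxcr4, of which the last did not pass (adjusted p = 0.0747). Ccr7 in CD8 T cells was 138 ± 7.12 in spleen and 259 ± 63.9 in blood, lower in 5 of 5 mice (-0.90 ± 0.14, adjusted p = 1.38e-06). The B cell Ccr7 call was lost when the mouse was not a block (-0.75, adjusted p = 0.0753), and that of CD8 T cells with at most 5% mitochondrial UMIs, where 3 mice remained (-0.64, adjusted p = 0.13).

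The rest of the pathway was counted from lists of 15 other receptors, 19 ligands (18 in the files) and 28 signalling genes (26 in the files). Among the other receptors of ascites, Ccrl2, an atypical receptor, fell in cDC1 (-1.35) and cDC2 (-1.01), Cmklr1, the chemerin receptor, in macrophages (-0.70), and Ccr6 in ascites B cells (-1.28 ± 0.35, adjusted p = 0.0127). Ccr6 was higher in spleen B cells (0.95 ± 0.27, adjusted p = 0.0283), and the difference of these effects passed (-2.05 ± 0.49, adjusted p = 0.0185).

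Of 12 ligands tested in macrophages, 2 rose and 3 fell, in a class where 13.5% of all tested genes passed. Ccl12 (-3.43), Ccl2 (-0.98), both ligands of Ccr2, and Ccl3 (-0.93), a ligand of Ccr1, were lower. Ccl5 (0.88), also a ligand of Ccr1, and Ccl9 (0.58) were higher. In cDC1, 1 of 8 ligands passed, Ccl2 (-2.14), and of 25 signalling genes 2 rose and 3 fell, shares near the 15.1% of all cDC1 genes that passed. The signalling genes were Grk5 at 2.0, Pik3cg at 0.81, Rgs18 at -1.27, Grk6 at -1.15 and Rgs2 at -0.66; Grk kinases desensitise G protein-coupled receptors and Rgs proteins shorten their G protein signal. Grk6 also fell in cDC2 (-0.98), macrophages (-0.81) and myeloid cluster 1 (-1.34). Over the 5 receptors tested in cDC1 the median log2 difference was -1.25, which is the value of Xcr1, while Ccr7 was at 2.66. The median over all genes tested there was 0.00. The receptors were chosen with earlier results known, so their median is a description and no test of the set.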

How the data were processed

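The deposited files hold UMI counts per gene and hashtag for each barcode, made by the authors with Cell Ranger 6.1.1 on mm10, per the submitters' processing notes and file headers. Arm, mouse and tissue of each hashtag came from the deposited hashtag notes, whose arms are called control and treated; these were read as vehicle and YKL-05-099 from the series' design text. The notes do not say whether mice were housed or processed separately, so p-values measure the spread between these mice. Filters required at least 200 genes and 500 UMIs per barcode and no more than 10% mitochondrial UMIs, which left 11112 barcodes in ascites and 11513 in spleen and blood. HTODemux (Seurat 5.3.0, positive quantile 0.99) called 37.9% and 35.7% of them doublets; no other doublet caller was run. An alternative takes the top hashtag where it holds at least 80% of at least 20 hashtag UMIs. It adds 2354 and 1813 of the called doublets, whose median depth was 12183.5 and 6081 UMIs (5575 and 5614.5 for cells kept). Deep single cells and true doublets among these were not told apart.

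Cells were clustered in scanpy 1.11.5 (10000 UMIs per cell, 2000 variable genes without chemokine receptors, 30 components, 20 neighbours, leidenalg 0.10.2 at resolution 1, sub-clusters at 0.3) and clusters were assigned to classes after their markers were seen. Counts were summed per mouse and class. edgeR 4.0.16 (quasi-likelihood, robust, TMM, filterByExpr, R 4.3.3) was run two-sided with at least 2 mice per arm, Benjamini-Hochberg adjustment over all genes of the class and a threshold of 0.05; DESeq2 1.42.0 and the other alternatives are given under sensitivity. Permutation tests used SciPy 1.17.1. On simulated counts edgeR recovered 82% of 2-fold changes for ascites cDC1 (5803 genes), 50% for monocytes (3701 genes), 59% for macrophages (6862 genes) and 68% for spleen B cells (5229 genes). The simulation used genes past the filter on low counts and the fitted dispersion trend. No gene had a dispersion of its own, so recovery in the real counts can be lower. Same-numbered mice of the arms did not deviate together, so arms were not paired. The members, the lists and the tests were chosen with earlier results of these data known. Named genes are all 9 members, the 3 most alike in profile, other receptors past the threshold (some results that this rule takes are not reported here), and up to 4 ligands or signalling genes per class.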

Additional observations from a re-analysis of the deposited data

Results flagged for a closer look

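Among 33 groups of 4 mice with a tested receptor, 3 held a mouse set apart from the others by Dixon's criterion, and chance gives about 1 in 20 groups. Vehicle mouse 1 was low for Ccr2 in ascites cDC1, with 170.8 CPM. Vehicle mouse 2 was low for Ccr2 in ascites cDC2, with 154.4 CPM. Treated mouse 4 was high for Ccr7 in ascites B cells, with 534.3 CPM.

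For Ccr6, a receptor outside the 9, the effect of YKL-05-099 in B cells differed between ascites and spleen in edgeR's interaction test, by a log2 difference of -2.05. Ascites and spleen were in different libraries, and each library held both arms.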

How the results depend on the processing

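Of 17 settings or single mice that reversed a log2 difference, all concerned pairs with no call. Cxcr5 in ascites B cells became -0.05 with no low-count filter, 0.00 with the replicate block, and ranged from -0.14 to 0.12 when 1 mouse was left out. Cx3cr1 in macrophages became -1.15 under the top hashtag rule, -0.09 with no filter, and -0.14 to 0.30 with 1 mouse left out. Cxcr4 in spleen B cells became 0.08 under the top hashtag rule, 0.01 with no filter, 0.21 in cluster 3 alone, and -0.13 to 0.13 with 1 mouse left out. Ccr2 kept its call in every setting run, from -2.66 to -2.45 in cDC1 (-2.71 to -2.56 without 1 mouse) and from -1.56 to -1.29 in monocytes (-1.63 to -1.28). With the replicate block it was -2.62 and -1.46.

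The 13 calls of ascites became 1 with at least 50 cells per mouse, where 3 pairs of 1 class were tested, and 7 with at most 5% mitochondrial UMIs, where 15 pairs of 4 classes were. The 1 call of spleen became 3 with at least 10 cells, 2 with at least 50, 2 under the top hashtag rule and 2 with the replicate block, and 1 to 3 with 1 mouse left out. The 2 calls of blood became 1 with DESeq2, 0 with at most 5% mitochondrial UMIs, 0 with the replicate block (5 pairs tested; Ccr7 in B cells 0.75, adjusted p = 0.1, and Cxcr4 0.52, adjusted p = 0.669) and 1 to 2 with 1 mouse left out. Spleen against blood went from 3 calls to 0 with at most 5% mitochondrial UMIs, where 1 pair was tested. Between tissues the count went from 0 to 1 under the top hashtag rule. The cause of these changes, beyond the number of pairs tested, was not tested. Same-numbered mice did not deviate together (correlations of -0.064 to 0.04), so the replicate numbers are not known to pair the arms.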
